A study of Mus musculus with 92 samples.

Results

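Quadriceps muscles of 92 mice were ranked by their transcript level of Dbp, a transcription factor whose messenger RNA rises and falls with the circadian clock, and the 23 animals with the highest level were compared with the 23 with the lowest. The members were thus chosen by the measured Dbp value of each animal alone. These 46 of 92 animals are called the high and low Dbp groups, and the other 46 the intermediate animals. All 92 were labelled as DOz mice, were 18 to 20 weeks old and had eaten standard rodent chow throughout life, so no group differs from another by diet or treatment. No sex, genotype of a single animal or hour of collection was in the labels used here, so Dbp is the stand-in for clock state, and a difference in clock phase and a difference in clock amplitude cannot be told apart.

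The mouse clock is a feedback loop. CLOCK or NPAS2 pairs with BMAL1 and activates genes through a DNA element called the E-box, including the Per and Cry genes, whose proteins then repress the pair, and the nuclear receptors NR1D1 and NR1D2, which repress Bmal1. Dbp is an E-box target one step outside that loop. Its protein, with the related TEF and HLF (the PAR bZIP factors), activates genes through the D-box, an element that the repressor NFIL3 also binds, and this carries the rhythm to genes of metabolism. In skeletal muscle, rhythmic output is known to include enzymes that choose between glucose and fat as fuel.

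Promoter sequences are shown first for 5 of the genes named below. They had the smallest p-values among the named genes outside the core loop that had a promoter window and hold a D-box or E-box in it, and other called genes also hold one. They come from RefSeq on GRCm38.p6, in windows from 250 bases before to 50 after an annotated start. Each is printed 5′ to 3′ on the strand of the gene, and capitals mark the E-box CACGTG.
Ciart, chr3:95882229-95882394, minus strand: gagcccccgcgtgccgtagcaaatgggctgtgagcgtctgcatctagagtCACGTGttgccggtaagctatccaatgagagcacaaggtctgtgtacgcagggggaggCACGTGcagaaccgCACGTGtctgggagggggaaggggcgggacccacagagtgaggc
Bhlhe41, chr6:145865518-145865623, minus strand: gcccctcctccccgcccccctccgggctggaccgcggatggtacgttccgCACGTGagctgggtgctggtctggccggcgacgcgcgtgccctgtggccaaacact
Tef, chr15:81802496-81802601, plus strand: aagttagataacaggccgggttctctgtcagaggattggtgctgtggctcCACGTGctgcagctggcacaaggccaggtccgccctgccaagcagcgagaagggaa
Fkbp5, chr17:28486263-28486368, minus strand: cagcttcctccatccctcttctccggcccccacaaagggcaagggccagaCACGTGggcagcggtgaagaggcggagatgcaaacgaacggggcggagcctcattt
Ppp1r3c, chr19:36736653-36736758, minus strand: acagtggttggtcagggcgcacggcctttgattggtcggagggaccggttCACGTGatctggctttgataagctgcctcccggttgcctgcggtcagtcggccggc
The E-box reads the same on both strands, and no printed match overlaps another. Tef has another start with an E-box that is not shown. The Ciart window held 3 E-boxes, beginning 116, 58 and 44 bases before the start, written -116, -58 and -44. Of these 5 genes, Ciart, Bhlhe41 and Tef were higher in the high Dbp group, whereas Fkbp5 and Ppp1r3c were lower.

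The D-box, searched on both strands as TTATGTAA or TTACGTAA, was found in 3 genes that were higher in the high Dbp group, and these are shown with the D-box in capitals on whichever strand it was read (TTACATAA is TTATGTAA on the opposite strand).
Coq10b, chr1:55052558-55052747, plus strand: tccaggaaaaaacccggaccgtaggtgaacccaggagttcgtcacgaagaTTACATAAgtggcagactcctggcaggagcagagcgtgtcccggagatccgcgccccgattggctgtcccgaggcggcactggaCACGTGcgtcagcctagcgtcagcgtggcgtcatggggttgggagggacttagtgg
Per3, chr4:151044766-151044915, minus strand: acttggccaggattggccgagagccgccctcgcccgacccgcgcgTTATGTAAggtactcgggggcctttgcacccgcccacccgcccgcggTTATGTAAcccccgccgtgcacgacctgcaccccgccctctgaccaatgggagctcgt
Timeless, chr10:128237859-128237966, plus strand: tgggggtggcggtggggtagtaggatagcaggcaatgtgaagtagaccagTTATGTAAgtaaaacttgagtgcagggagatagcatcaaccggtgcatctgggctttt
Coq10b also holds an E-box, likewise in capitals. Among genes with a window, the D-box occurred in 3 of 75 that were higher (4%), in 0 of 128 that were lower, and in 84 of all 10249 tested (0.82%). The E-box occurred in 5 of 75 higher genes (6.67%), 22 of 128 lower genes (17.2%) and 1202 of all 10249 (11.7%). The cyclic AMP element TGACGTCA occurred in 0 of 75, 9 of 128 (7.03%) and 3.53% of all genes. The palindromic glucocorticoid response element was in none of the 75 or 128 and in 1 of all genes, and the RORE, bound by the NR1D and ROR receptors, in 0 of 75, 1 of 128 (0.781%) and 21 of all genes (0.205%). Such matches describe letters in these windows and do not show binding.

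Dbp itself (ENSMUSG00000059824) had a mean log2 level of 4.68 with an SD of 0.92 over the 92 animals, on the deposited scale, which is read here as close to log2 CPM (reads scaled to a common library total). In the high group it ran from 5.33 to 6.72 with a median of 5.68, and in the low group from 2.39 to 4.18 with a median of 3.43. These values chose the groups and carry no test. The group means differed by 2.33 log2 units, or 5.04-fold. Dbp changed smoothly at both limits: rank 23 had 5.33497 and rank 24 had 5.32828, while rank 69 had 4.17996 and rank 70 had 4.17882.

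**Figure D1:**
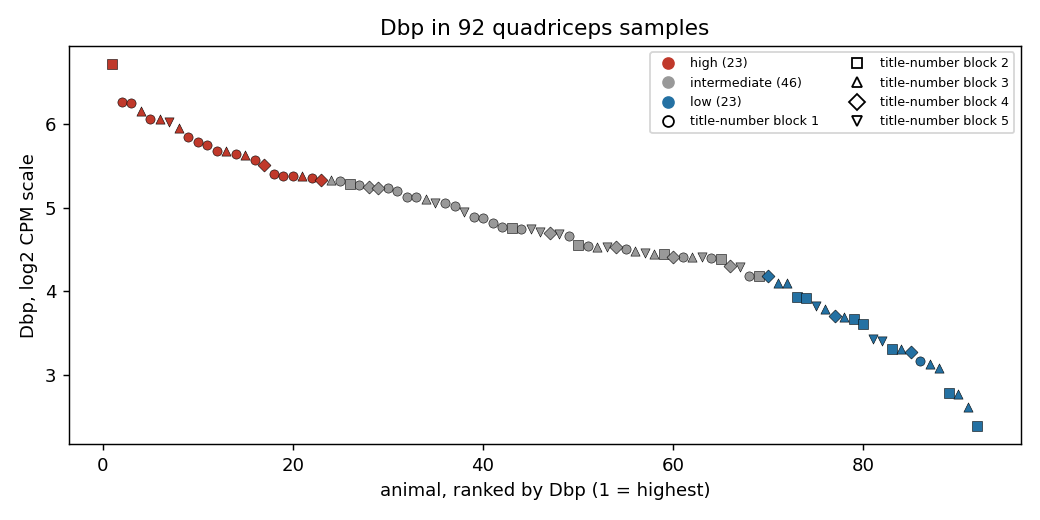
Each point is 1 animal, with its Dbp level (log2 CPM scale, y axis) against its rank (x axis). Colour gives the high, intermediate and low groups and shape gives the title-number block. The levels fall from 6.72 to 2.39, without a gap at the limits between the groups. Of the 33 circles (block 1) 13 are in the high, 19 in the intermediate and 1 in the low group.

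The groups were unequal in one feature of the labels. Sample titles end in numbers whose meaning is not given, and wherever consecutive numbers are more than 30 apart a new title-number block was taken to begin, which makes 5 blocks. Block 1 supplied 13 animals of the high group and 1 of the low group, blocks 2 to 5 supplied 1, 6, 2 and 1 high animals and 7, 9, 3 and 3 low animals, and only block 3 has at least 3 of each. The called genes described below are therefore also followed in 3 analyses. One has the block as a covariate, and 2 were chosen after this imbalance was seen: one without block 1, which leaves 10 high and 22 low animals, and one that ranks the animals by Dbp inside each block and compares the top with the bottom of every block (23 against 23, sharing 17 high and 16 low animals with the main groups). The typical level of a library did not separate the groups, since the median log2 value over genes was 3.46 to 3.54 in high and 3.43 to 3.53 in low animals, and no pair of libraries was close to identical.

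The core loop moved with Dbp: with limma, 4 of its 12 genes were higher in the high group and 3 were lower, among them Per3 at a log2 difference of 1.02 ± 0.13 (SE, adjusted p = 6.08e-07) and Bmal1 at -0.78 ± 0.09 (adjusted p = 1.51e-07). Per3, Bmal1 and Npas2 also passed without block 1, inside blocks and with the block as covariate. Per2, Cry1, Cry2 and Nr1d2 did not pass without block 1 (limma adjusted p = 0.169 to 0.424) or with the block as covariate (0.0563 to 0.354), and of these only Nr1d2 passed inside blocks (0.0451). Over all genes except Dbp, 258 of 13440 passed an adjusted p of 0.05 (1.92%), 95 higher (0.707%) and 163 lower (1.21%). Their median absolute difference was 0.40 log2 units, and 20 of them differed by at least 1. An unadjusted p under 0.05 was reached by 2123 genes (15.8%). For no gene of the 13440 were the groups fully apart. The count fell to 23 (0.171%) without block 1, where 22 of the genes were among the 258, was 59 (0.439%) with the block as covariate, and was 167 (1.24%) for the ranking inside blocks, with 105 shared. All 258 had the same direction inside blocks, but that ranking uses the same Dbp values and shares 17 high and 16 low animals. The agreement is therefore not a separate test. One gene outside the 258 (0.00744% of those tested) had a slope on Dbp that differed between blocks with limma.

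The list of PAR bZIP factors and clock-linked repressors had 5 of 6 genes past the threshold, 4 higher and 1 lower. With the lists of widely rhythmic genes and of muscle clock output, 12 of 29 output genes passed (41.4%, against 1.92% of all genes), 7 higher and 5 lower. Without block 1 the 29 genes gave 6 calls, 3 higher and 3 lower, against 0.171% of all genes called in that fit. The lists were drawn up with earlier results of these data known, so the share describes them and does not test them.

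Nfil3 (ENSMUSG00000056749), the repressor that competes with DBP at the D-box, moved against Dbp. It ran from 2.83 to 5.52 with a median of 4.74 in high animals and from 5.23 to 6.78 with a median of 6.13 in low animals. Of the 23 high animals, 19 lay below every low animal. Nfil3 was 2.85-fold lower in the high group (log2 difference -1.51 ± 0.17, SE, limma adjusted p = 4.40e-08), and the difference was -1.38 inside blocks (adjusted p = 5.89e-07) -1.40 with the block as covariate (adjusted p = 0.000231) and -1.26 without block 1 (adjusted p = 7.44e-05).

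The E-box repressors Bhlhe40 and Bhlhe41, also named Dec1 and Dec2, moved with Dbp. Bhlhe40 (ENSMUSG00000030103) ran from 6.72 to 7.57 with a median of 7.06 in high and from 5.46 to 6.73 with a median of 6.32 in low animals, and 22 of 23 high animals lay above all low ones. It had the smallest p of the 13440 genes (0.78 ± 0.08, 1.72-fold, limma adjusted p = 4.60e-09). Bhlhe41 had a median of 6.47 in high animals (range 5.58 to 6.83) and 5.83 in low animals (range 5.19 to 6.46). Its ranges overlapped more, with 14 of 23 high animals above all low ones, and it was higher by 0.58 ± 0.10 (limma adjusted p = 0.000297). Both passed inside blocks (limma adjusted p = 3.51e-06 for Bhlhe40 and 7.13e-05 for Bhlhe41) without block 1 (3.15e-05 and 0.0131) and with the block as covariate (1.23e-07 and 0.0193).

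Ciart, which encodes the CHRONO protein that represses CLOCK and BMAL1, showed the largest rise among the repressors. Its level ran from 1.16 to 3.18 with a median of 2.04 in high animals and from -0.49 to 2.05 with a median of 0.74 in low animals. All 23 high animals lay above the low median and 11 above every low animal. The difference was 1.33 ± 0.18, or 2.52-fold (limma adjusted p = 2.33e-06), 1.07 inside blocks (adjusted p = 0.00119), 1.19 with the block as covariate (0.00314) and 1.31 without block 1 (adjusted p = 0.0113).

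Dbp's own relatives differed much less. Tef ran from 7.49 to 8.19 with a median of 7.75 in high and from 7.23 to 8.03 with a median of 7.53 in low animals. The difference was 0.27 ± 0.06 (1.21-fold, limma adjusted p = 0.00589), and its adjusted p was 0.0130 inside blocks but 0.0641 with the block as covariate and 0.112 without block 1. Hlf had a median of 4.05 in high and 3.66 in low animals and did not pass (0.32 ± 0.12, limma adjusted p = 0.173).

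**Figure D2:**
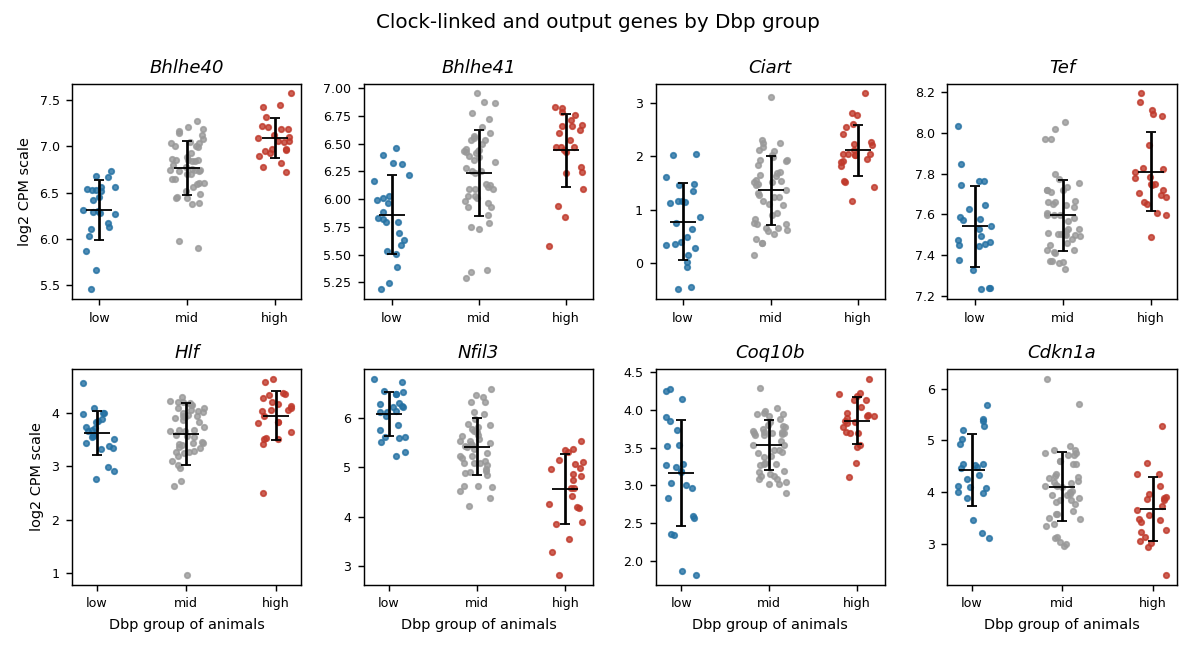
Levels (log2 CPM scale, y axes) of 8 clock-linked and output genes in low, intermediate (mid) and high Dbp animals (x axes). Points are animals, and bars are the mean and SD of 23, 46 and 23 animals. Bhlhe40 and Nfil3 show the least overlap, and Hlf did not pass the test.

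Of 14 genes rhythmic in many tissues, 2 passed (14.3%, against 1.92% of all genes). Coq10b, which encodes a coenzyme Q-binding protein of mitochondria and holds the D-box printed above, ran from 3.11 to 4.41 (median 3.89) in high animals and from 1.81 to 4.28 (median 3.20) in low animals. The low animals were the more spread, and the difference was 0.69 ± 0.15 (limma adjusted p = 0.00785). Cdkn1a, the cell-cycle inhibitor p21, had medians of 3.65 and 4.47 and was lower by a log2 difference of -0.76 ± 0.19 (limma adjusted p = 0.0193). The other 12 did not pass, among them the ubiquitin protease Usp2 (0.27 ± 0.10, adjusted p = 0.159), Nampt of NAD synthesis (-0.13 ± 0.08, adjusted p = 0.435) and the kinase Wee1 (0.07 ± 0.13, adjusted p = 0.848). Coq10b lost its call without block 1 (adjusted p = 0.292), and Cdkn1a did not (adjusted p = 0.0379). Inside blocks both passed, with limma adjusted p of 0.0165 for Coq10b and 0.0226 for Cdkn1a, and with the block as covariate Cdkn1a passed (0.0402) and Coq10b did not (0.149).

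Of 9 muscle clock output genes, 5 passed (55.6%, against 1.92% of all genes), 2 higher and 3 lower. Pdk4 and Pdp1 had the smallest p-values among them. The pyruvate dehydrogenase complex is turned off by the kinase PDK4 and turned on again by the phosphatase PDP1, and the transcripts of the 2 enzymes differed in opposite directions. Pdk4 (ENSMUSG00000019577) ran from 7.05 to 10.34 with a median of 9.14 in high animals and from 8.73 to 11.66 with a median of 10.75 in low animals. Every high animal lay below the low median, and 7 lay below all low animals. Pdk4 was 2.75-fold lower in the high group (-1.46 ± 0.22, limma adjusted p = 7.67e-05).

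Pdp1 (ENSMUSG00000049225) ran from 6.23 to 7.50 with a median of 6.78 in high animals and from 5.39 to 6.69 with a median of 6.15 in low animals. All 23 high animals lay above the low median and 12 above every low animal. Pdp1 was higher by 0.58 ± 0.09 (1.49-fold, limma adjusted p = 0.000143). Pdk4 passed without block 1 (-1.30, adjusted p = 0.00596), while Pdp1 did not (0.46, adjusted p = 0.0637). Both passed inside blocks, with limma adjusted p of 9.82e-05 and 0.00033, and with the block as covariate (0.0103 and 0.0370). In block 3 alone, with 6 high and 9 low animals, the group means differed by -1.07 for Pdk4 and 0.46 for Pdp1, beside -1.44 for Nfil3, 0.84 for Bhlhe40 and 0.96 for Ciart.

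Ucp3 and Ppp1r3c were lower too, and Tcap was higher. Ucp3, a carrier of the inner mitochondrial membrane induced when fat is burned, had medians of 6.79 in high and 7.61 in low animals (-0.78 ± 0.15, limma adjusted p = 0.00154). Ppp1r3c, which brings protein phosphatase 1 to glycogen, had medians of 8.80 and 9.35 (-0.76 ± 0.14, limma adjusted p = 0.00162). Tcap, the titin cap of the Z-disc, had medians of 9.58 and 9.33 and was higher by 0.40 ± 0.09 (limma adjusted p = 0.0105). The ranges of all 3 overlapped, with 5 of 23 high animals beyond every low animal in each. Of the remaining 4 genes of the list, Myod1, the myogenic factor, differed by -0.02 ± 0.14 (adjusted p = 0.957). Without block 1 the limma adjusted p was 0.135 for Ucp3, 0.132 for Ppp1r3c and 0.196 for Tcap, and inside blocks Ucp3 (0.00213) and Ppp1r3c (0.0111) passed and Tcap did not (0.0642). With the block as covariate Ucp3 passed (0.0405), and Ppp1r3c (0.0503) and Tcap (0.238) did not.

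Metabolic genes beyond those output lists differed seldom. Over 7 lists, 8 of 192 genes passed (4.17%, against 1.92% of all genes), 1 higher and 7 lower. Without block 1 limma called 0 of the 192 (against 0.171% of all genes), with 27 at an unadjusted p under 0.05. The fit with the block as covariate called 2, Acot2 and Slc38a2 (against 0.439% of all genes). The ranking inside blocks called 5 (against 1.24% of all genes). Each of these called genes was lower.

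Fatty acid uptake and oxidation genes lay mostly below 0, but most did not pass. Of 30, 2 (6.67%, against 1.21% of all genes) were lower and none higher. Their median difference was -0.14 with 29 of 30 below 0, against a median of 0.0032 over all genes. Angptl4, a secreted inhibitor of lipoprotein lipase, ran from 0.19 to 5.11 with a median of 2.93 in high and from 2.65 to 4.90 with a median of 3.98 in low animals. Both the lowest and the highest value belonged to high animals, and 22 of the 23 lay below the low median. Its difference was -1.14 ± 0.23, or 2.20-fold lower (limma adjusted p = 0.00383).

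Acot2, a thioesterase that releases fatty acids from coenzyme A in mitochondria, had a median of 3.66 in high animals (range 2.80 to 4.80) and 4.28 in low animals (range 3.67 to 5.72). It differed by -0.70 ± 0.14 (limma adjusted p = 0.00384), and since Acot1 is a near-identical copy, reads of the pair may have been counted together. The other 28 did not pass. Examples are the lipid droplet protein Plin5 (-0.53 ± 0.17, adjusted p = 0.0840), the dehydrogenase Acadl (-0.25 ± 0.10, adjusted p = 0.175) and the fatty acid carrier Cd36 (-0.22 ± 0.11, adjusted p = 0.321). Inside blocks both called genes passed, with limma adjusted p of 0.0226 for Angptl4 and 0.0479 for Acot2, and without block 1 neither did (0.169 and 0.0766). With the block as covariate Angptl4 did not pass (-0.88, adjusted p = 0.215) and Acot2 did (0.0491).

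Glucose and glycogen metabolism had 12 of 37 genes above 0 and 25 below, with a median difference of -0.04. Of the 37, 1 passed (2.70%, near the 1.92% of all genes). This was Ugp2, which makes the UDP-glucose used for glycogen (-0.24 ± 0.06, limma adjusted p = 0.0341). Its medians were 9.17 in high and 9.40 in low animals. It did not pass inside blocks (adjusted p = 0.119), with the block as covariate (0.283) or without block 1 (0.278). The insulin-responsive glucose transporter Slc2a4 (GLUT4) differed by -0.07 ± 0.04 (adjusted p = 0.434) and hexokinase Hk2 by 0.07 ± 0.10 (adjusted p = 0.809).

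Insulin signalling had 1 of 20 genes past the threshold (5%, against 1.92% of all genes). Of the 20, 17 lay below 0, with a median difference of -0.14. Irs2, an adaptor of the insulin receptor, ran from 2.95 to 5.50 with a median of 4.48 in high and from 3.84 to 6.28 with a median of 5.27 in low animals. Only 1 high animal lay below every low one. Irs2 differed by -0.67 ± 0.17 (1.59-fold lower, limma adjusted p = 0.0290). Neither the kinase subunit Pik3ca (-0.26 ± 0.08, adjusted p = 0.0670) nor Akt2 (-0.21 ± 0.08, adjusted p = 0.178) passed. Irs2 passed inside blocks (adjusted p = 0.0232) but not with the block as covariate (0.168) or without block 1 (0.336).

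The mitochondrial regulators gave 1 gene lower and 1 higher of 16 (12.5% called, against 1.92% of all genes). Ppargc1a, the coactivator PGC-1α that drives mitochondrial genes, ran from 4.54 to 5.73 with a median of 5.22 in high animals and from 5.04 to 8.30 with a median of 5.85 in low animals. Its upper tail lay in the low group, and all 23 high animals were below the low median. Ppargc1a differed by -0.76 ± 0.16 (1.69-fold lower, limma adjusted p = 0.00626). Prkag3, the gamma subunit of AMP-activated kinase typical of fast glycolytic muscle, had medians of 7.38 in high and 6.82 in low animals (0.56 ± 0.13, limma adjusted p = 0.00795). Inside blocks Ppargc1a passed (adjusted p = 0.0410) and Prkag3 did not (0.0576), and neither passed without block 1 (0.196 and 0.248) or with the block as covariate (0.125 and 0.205).

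In amino acid, polyamine and NAD metabolism 1 of 27 genes passed (3.70%, against 1.92% of all genes). This was Slc38a2, a sodium-coupled carrier of neutral amino acids. It ran from 6.09 to 7.78 with a median of 7.27 in high and from 7.25 to 8.79 with a median of 7.83 in low animals, and all 23 high animals lay below the low median. The difference was -0.72 ± 0.12 (1.65-fold lower, limma adjusted p = 0.000181). It passed inside blocks (adjusted p = 0.00233) and with the block as covariate (0.0347), and not without block 1 (0.0984).

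Of 27 lipogenic and SREBP target genes limma called 0, with 5 at an unadjusted p under 0.05, near the share of all genes (15.8%), and 21 of 27 lay above 0. The smallest p was that of Srebf2, the activator of cholesterol synthesis (0.13 ± 0.06, adjusted p = 0.232). Of 35 genes of ceramide and sphingolipid metabolism, the subject of the study's title, 1 passed (2.86%, near the 1.92% of all genes). This was Sgms1, which turns ceramide into sphingomyelin, with medians of 5.84 in high and 6.11 in low animals (-0.29 ± 0.08, limma adjusted p = 0.0355). Inside blocks its difference was -0.09 (adjusted p = 0.724), and the adjusted p was 0.312 with the block as covariate and 0.266 without block 1. The muscle ceramide synthase Cers1 (0.22 ± 0.09, adjusted p = 0.232) and Cers2, which makes very long-chain ceramides (0.10 ± 0.06, adjusted p = 0.385), did not pass.

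**Figure D3:**
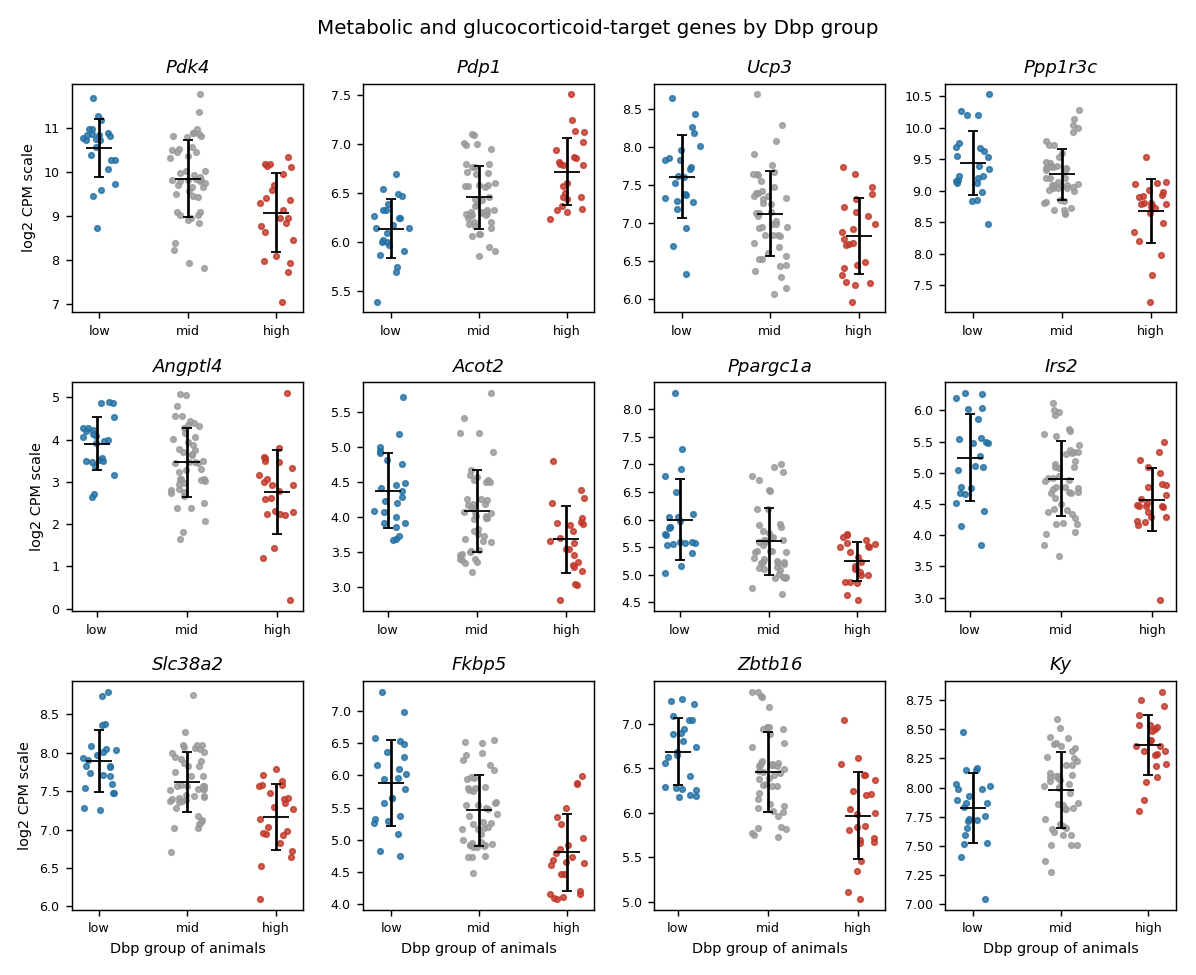
Levels (log2 CPM scale, y axes) of 12 metabolic, glucocorticoid-target and muscle genes in low, intermediate (mid) and high Dbp animals (x axes). Points are animals, and bars are the mean and SD of 23, 46 and 23 animals. Pdk4 and Pdp1 differ in opposite directions, with Pdk4 lower and Pdp1 higher in high Dbp animals.

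Targets of the glucocorticoid receptor, through which adrenal hormone acts with a daily rhythm of its own, were lower where they differed. Of 18 genes, 5 were lower and none higher (27.8%, against 1.21% of all genes lower), and 15 of 18 lay below 0. Fkbp5, a chaperone that damps the receptor, ran from 4.07 to 5.99 with a median of 4.68 in high and from 4.74 to 7.31 with a median of 5.94 in low animals. It was 2.12-fold lower (-1.08 ± 0.18, limma adjusted p = 0.000209), and 13 of 23 high animals lay below every low one. Zbtb16, a transcription factor strongly induced by glucocorticoids, had medians of 5.99 and 6.68 (-0.72 ± 0.12, limma adjusted p = 0.000339).

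The metallothioneins Mt1 and Mt2, which bind zinc, were only just past the threshold. Mt2 ran from -1.50 to 6.18 with a median of 0.17 in high and from -0.35 to 5.47 with a median of 1.90 in low animals. The highest Mt2 value of both groups was in a high Dbp animal. Mt2 differed by -1.66 ± 0.47 (limma adjusted p = 0.0467) and Mt1 by -1.15 ± 0.33 (adjusted p = 0.0499). Foxo1, a regulator of fasting and atrophy genes, differed by -0.44 ± 0.12 (limma adjusted p = 0.0430). Fkbp5 passed without block 1 (adjusted p = 0.0243) and Zbtb16, Foxo1, Mt1 and Mt2 did not (0.0890 to 0.373), and Mt2 was also lost inside blocks (0.0509). With the block as covariate Fkbp5 (0.00527) and Zbtb16 (0.0243) passed, and Foxo1, Mt1 and Mt2 did not (0.141 to 0.229).

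Of the 14 atrophy and autophagy genes, 2 were lower (against 1.21% of all genes), both ubiquitin ligases. Trim63, named MuRF1, had medians of 7.39 in high and 7.84 in low animals (-0.58 ± 0.15, limma adjusted p = 0.0333), and Cblb had 4.16 and 4.42 (-0.33 ± 0.09, limma adjusted p = 0.0445). Fbxo32, the other classical atrophy ligase, did not pass (-0.45 ± 0.13, adjusted p = 0.0670). Without block 1 neither Trim63 (adjusted p = 0.278) nor Cblb (0.187) passed, and inside blocks only Trim63 did (0.0228). With the block as covariate neither passed (0.125 and 0.195).

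In the list of temperature-sensitive chaperones and RNA-binding proteins 3 of 12 genes passed, all lower, against 1.21% of all genes called lower. An unadjusted p under 0.05 was reached by 11 of 12, against 15.8% of all genes, and 10 of the 12 lay below 0 and 2 above. Hspa8, the constitutive Hsp70 protein, had medians of 10.31 in high and 10.61 in low animals (-0.42 ± 0.08, limma adjusted p = 0.00157), Hspd1 of the mitochondrial matrix 7.63 and 7.84, and Hsph1 of the Hsp110 family 6.78 and 7.17. The heat-inducible Hspa1a differed by -1.82 ± 0.60 without passing (adjusted p = 0.0985), and its reads may be shared with the near-identical Hspa1b. Of the 3 called genes Hspa8 passed inside blocks (limma adjusted p = 0.0226), and none passed without block 1 (0.366 to 0.621) or with the block as covariate (0.282 to 0.583).

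Of 12 immediate early genes, those that respond within minutes to nerve or hormone signals, only Nr4a3 passed (1 of 12 or 8.33%, against 1.92% of all genes). This orphan nuclear receptor, responsive to exercise and to adrenaline, ran from -0.12 to 5.004 with a median of 2.39 in high and from 0.50 to 7.34 with a median of 4.76 in low animals. Its difference of -1.89 ± 0.44 (3.71-fold lower, limma adjusted p = 0.0126) was the largest of the named genes, and the ranges overlapped. It passed inside blocks (adjusted p = 0.0301) but not with the block as covariate (-1.47, adjusted p = 0.235) or without block 1 (0.439).

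**Figure D4:**
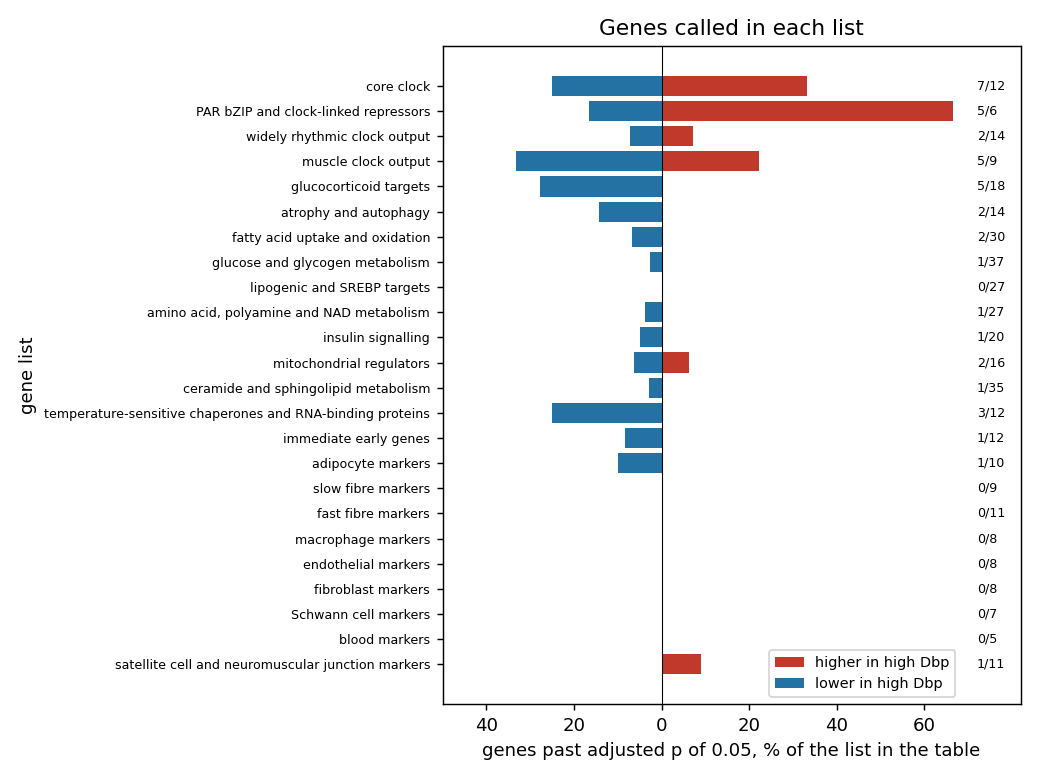
Share of the genes of each list past a limma adjusted p of 0.05 (x axis, % of the list's genes in the table) by list (y axis). Bars to the right are genes higher and bars to the left genes lower in the high Dbp group, with counts at the right edge. Over all genes the shares were 0.707% higher and 1.21% lower.

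Outside the lists, the genes with the largest rise included several regulators. Ky, a protease-like protein of the Z-disc, had medians of 8.36 in high and 7.87 in low animals (0.54 ± 0.08, limma adjusted p = 4.71e-05), and passed without block 1 (adjusted p = 0.00596). Bcl6b, a transcriptional repressor, was higher by 0.85 ± 0.20 (limma adjusted p = 0.0109) and Dll4, a Notch ligand of blood vessels, by 0.74 ± 0.16 (adjusted p = 0.00672). Timeless, a replication fork protein, was higher by 0.74 ± 0.19 (limma adjusted p = 0.0306). The forkhead factor Foxo6, the zinc finger gene Zfp503, the actin-regulated coactivator Mrtfa and the stress kinase phosphatase Dusp10 were higher by 0.55 to 0.69. Of these 8 genes only Ky passed without block 1 and with the block as covariate (limma adjusted p = 0.000231), and Bcl6b and Timeless did not pass inside blocks (limma adjusted p = 0.0627 and 0.281).

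Several transcripts of unknown function, all annotated as long noncoding RNAs, were among the largest differences. Gm11266 was higher by 0.97 ± 0.22 (limma adjusted p = 0.00795). Gm48942, Gm20186, Gm56906, Gm49668, Gm56730 and Gm56555 were lower, with log2 differences from -1.54 to -1.10. The same intermediate animal held the highest value of the 92 for Gm48942 (6.37), Gm20186 (9.64), Gm56906 (8.47), Gm56730 (8.98) and Gm56555 (8.43). These may therefore not be separate differences, and whether they vary together was not tested. Gm48942 ran from 0.39 to 3.66 with a median of 1.73 in high and from 1.64 to 5.85 with a median of 3.51 in low animals (limma adjusted p = 0.00339). Use of strand in the counting is not given in the sources used here, so for any of these that overlaps another gene the reads of the pair cannot be told apart. None of the 7 passed without block 1, and Gm56906 and Gm49668 did not pass inside blocks. With the block as covariate Gm11266 and Gm49668 did not pass (limma adjusted p = 0.145 and 0.126).

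**Figure D5:**
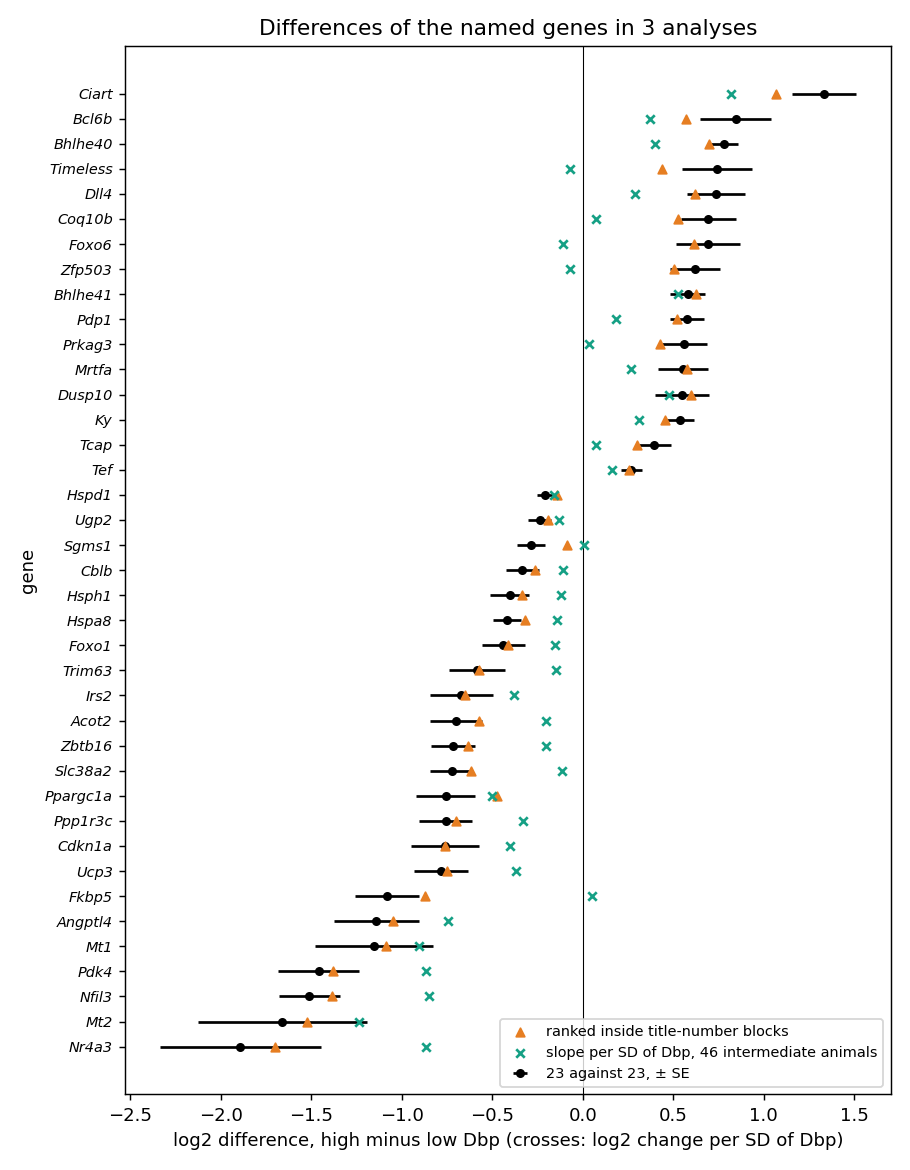
Log2 differences (x axis) of 39 called genes (y axis). Black points are high minus low Dbp with SE (23 against 23), triangles the ranking inside title-number blocks, and crosses the slope per SD of Dbp in the 46 intermediate animals. Points and triangles lie on the same side of 0 for each gene, whereas the crosses of Timeless, Foxo6, Zfp503, Sgms1 and Fkbp5 lie on the other side.

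The 46 intermediate animals took no part in choosing the genes, so the relation to Dbp was fitted again in them, per SD of Dbp (0.92 log2 units). No gene passed the adjusted threshold with limma (smallest adjusted p = 0.387), and 929 (6.91%) had an unadjusted p under 0.05. Of the 258 genes, 184 (71.3%) had a slope of the same sign as their high to low difference, against 50.7% of all genes. An unadjusted p under 0.05 with the same sign was reached by 34 of the 258 (13.2%), against 3.91% of all genes, and by 2 with the opposite sign.

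Among the named genes, Nfil3, Bhlhe41, Bhlhe40 and Ciart had the smallest p-values in the intermediate animals. Nfil3 changed by -0.85 ± 0.18 per SD (p = 2.88e-05, limma adjusted p = 0.387), Bhlhe41 by 0.53 ± 0.13 (p = 0.000183), Bhlhe40 by 0.40 ± 0.10 (p = 0.000195) and Ciart by 0.82 ± 0.23 (p = 0.000726). Among metabolic genes, Pdk4 (-0.87 ± 0.31, p = 0.00778), Angptl4 (-0.74 ± 0.30, p = 0.0166), Ppargc1a (-0.50 ± 0.22, p = 0.0293) and Ppp1r3c (-0.33 ± 0.15, p = 0.0331) had unadjusted p-values under 0.05. For Pdp1 (0.19 ± 0.12, p = 0.139), Slc38a2 (-0.12 ± 0.15, p = 0.445) and Fkbp5 (0.05 ± 0.21, p = 0.808) they were above it. These single p-values are unadjusted and belong to genes already called in the other animals.

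Ranking the animals by 2 other clock-linked genes, Per3 and Tef, in place of Dbp kept 16 of the 23 high and 12 of the 23 low animals. It gave 135 called genes of 13438 (1.0%), 61 higher and 74 lower, of which 51 were among the 258. Pdk4 (-1.20, limma adjusted p = 0.00374), Nfil3 (-1.33, adjusted p = 1.60e-05), Ciart (1.26, adjusted p = 6.41e-06) and Fkbp5 (-0.82, adjusted p = 0.0276) passed under both rankings. Irs2 (-0.22, adjusted p = 0.650), Sgms1 (-0.05, adjusted p = 0.856) and Dusp10 (0.05, adjusted p = 0.933) passed under the Dbp ranking only. The difference between the rankings was not tested.

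Quadriceps holds several fibre and cell types, and in whole tissue fewer cells of a type and less RNA per cell cannot be told apart. Fast fibre transcripts dominated both groups, with summed levels on the linear scale of 136600 to 197500 in high and 138600 to 182700 in low animals, and 0 of 11 passed. The 9 slow fibre markers all lay below 0 without passing (median -0.40), with sums of 71.8 to 1647 in high and 124.1 to 1418 in low animals. Among 77 markers of all types 2 passed (2.60%, near the 1.92% of all genes): Plin4, a lipid droplet coat protein on the adipocyte list (-0.43 ± 0.12, limma adjusted p = 0.0397; named after its value was seen), and Chrne, the adult acetylcholine receptor subunit of the neuromuscular junction (0.53 ± 0.15, adjusted p = 0.0478). Neither Plin4 (limma adjusted p = 0.157) nor Chrne (0.289) passed with the block as covariate, and Chrne did not pass inside blocks (0.564) but did without block 1 (0.0352).

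The 10 adipocyte markers summed to 487.2 to 3129 in high and 789 to 1691 in low animals, 8 of 10 being below 0. None of the 8 macrophage, 8 endothelial, 8 fibroblast, 7 Schwann cell or 5 blood markers passed, and the 11 satellite cell and junction markers summed to 138.8 to 242 in high and 130.6 to 203.9 in low animals. Of those 11, 9 lay above 0 and 6 had an unadjusted p under 0.05 (median 0.20). Also above 0 were 8 of 8 fibroblast, 5 of 5 blood, 7 of 8 macrophage, 6 of 7 Schwann cell and 5 of 8 endothelial markers. With the marker scores of every list as covariates, limma called 54 genes (0.402%), 17 higher and 37 lower, 50 of them among the 258. Nfil3 (-1.63, adjusted p = 2.18e-07), Bhlhe40 (0.82, adjusted p = 7.48e-06), Pdk4 (-1.35, adjusted p = 0.0104), Pdp1 (0.55, adjusted p = 0.00305) and Angptl4 (-1.19, adjusted p = 0.00815) passed in that fit. Fkbp5 (-0.81, adjusted p = 0.0687), Irs2 (-0.57, adjusted p = 0.318) and Prkag3 (0.37, adjusted p = 0.337) did not.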

How the data were processed

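Messenger RNA of quadriceps was sequenced in 92 samples from 500 ng of RNA each, per the labels' protocols. The authors deposited 1 table of log2 values, whose linear sums were 898070 to 1140800 per sample, so the values are read as close to log2 CPM. The sums alone do not settle the unit, and whether transcript length was taken into account is not given. The submitters' processing notes name bcl2fastq, MultiQC, kallisto 0.50.1, edgeR and mm10, without their roles. Counts, and so depth, were not analysed here, and no counting interval is given. Of 13456 lines, 15 repeats with identical values were dropped, which left 13441 genes.

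Animals were ranked by Dbp, and high was compared with low over 13440 genes with limma 3.58.1 in R 4.3.3 (mean-variance trend, two-sided, Benjamini-Hochberg adjustment, threshold 0.05). A limma slope on Dbp was fitted in the 46 intermediate animals, and a limma F-test asked whether the slope differs between title-number blocks. Nothing in the labels says how the libraries were grouped in time, and p-values measure the spread between these samples. The fits were tested on simulated data in which genes varied independently, so that test does not give their error rate in these samples. Fold changes are ratios of geometric means.

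The groups, lists and tests were chosen with earlier results of these data known. Genes were named by rule: the core clock and PAR bZIP lists, the 12 largest called rises and falls with a symbol and a mean log2 of at least 1, up to 6 called genes per list (or the smallest p) and the marker with the largest difference per list. Genes given only as examples that did not pass were chosen after their values were seen. Alternatives covered a pseudocount of 1, a filter on low means, covariates, centring, robust variance, other group sizes and other rankings. Promoter windows were found for 203 of the 258 called genes.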

Additional observations from a re-analysis of the deposited data

Results flagged for a closer look

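Serac1, a gene whose protein takes part in phosphatidylglycerol remodelling, was the 1 gene of 13440 whose slope on Dbp differed between title-number blocks (limma F-test, F = 10.63, adjusted p = 0.00636, with 1519 genes at an unadjusted p under 0.05). Its slopes were 0.10, -0.12, -0.09, -0.30 and -0.84 log2 units per SD of Dbp in blocks 1 to 5, so the steepest lay in block 5, of which 13 animals were sampled. Between the high and low Dbp groups Serac1 had medians of 3.13 and 3.51 and did not pass (-0.40 ± 0.12, limma adjusted p = 0.0769). With marker scores as covariates 0 genes passed the same test by limma, with 883 at an unadjusted p under 0.05.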

How the results depend on the processing

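The count of 258 genes became 59 with the title-number block as covariate, 54 with marker scores as covariates, 416 for the slope over all 92 animals, 135 when ranked by Per3 and Tef, 23 without block 1 and 167 when ranked inside blocks. It stayed within 1.5 times of 258 under the other 7 alternatives. The 12 clock output genes became 6 without block 1. The 8 metabolic genes became 2 with the block, 2 with marker scores, 4 for 15 against 15 animals, 5 when ranked by Per3 and Tef, 0 without block 1 (limma, 27 at an unadjusted p under 0.05) and 5 when ranked inside blocks. The 1 gene with unequal slopes became 0 with marker scores. The analysis without block 1 has fewer animals (10 and 22), and other causes were not tested. Of 54 called named genes, 21 passed with the block, 23 with marker scores, 12 without block 1 and 38 within blocks. When ranked by Per3 and Tef, 25 of 52 passed. None changed sign. Bhlhe40, Bmal1, Ciart, Nfil3, Npas2 and Pdk4 passed in all 13 alternatives. No paired analysis was possible because the labels give a single group and no pairing of animals. Depth is unknown, so the precision of low values such as those of Mt2 could not be set.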

Other observations

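Per1, a core clock repressor that also responds to acute stimuli, did not differ in mean (0.44 ± 0.29, limma adjusted p = 0.490), yet its spread was unequal. In high Dbp animals it ran from 3.10 to 5.42 with a median of 4.13. In low Dbp animals it ran from 2.34 to 5.78 with a median of 3.04, so the lowest and the highest Per1 levels of both groups lay among animals with low Dbp, and all 23 high animals were above the low median. The spreads were not compared by a test.

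Among genes outside every list, chosen here after their values were seen, Lpin1, a phosphatidate phosphatase and coactivator of fat oxidation genes, was lower in high Dbp animals (-0.48 ± 0.08, limma adjusted p = 0.000304), with medians of 8.42 and 8.92. The kinase Pim1 (-0.79 ± 0.13, adjusted p = 0.000221) and the heparan sulfate proteoglycan Sdc4 (-0.60 ± 0.10, adjusted p = 0.000259) were also lower, and Pim1 passed without block 1 (adjusted p = 0.0332) while Lpin1 (0.124) and Sdc4 (0.0854) did not. With the block as covariate Pim1 (0.0193) and Sdc4 (0.0103) passed and Lpin1 did not (0.0897). Lpin1 did not pass when ranked inside blocks (limma adjusted p = 0.0944), and its slope in the intermediate animals was 0.0052 ± 0.14 per SD. Of the 258 genes, 218 were in none of the lists.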
